A study of Mus musculus with 2 samples.

Results

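The genes described here encode the machinery of oxidative phosphorylation, read in single immune cells of the mouse small intestine. They were taken by name: every gene whose symbol begins with Nduf, Uqcr, Cox4 to Cox8, Atp5 or mt-, together with Sdha, Sdhb, Sdhc and Sdhd. This gave 107 of the 32285 genes counted. Of these, 94 are encoded in the nucleus: 37 complex I subunits, 8 complex I assembly factors, 4 complex II, 8 complex III, 20 complex IV and 17 complex V genes. The other 13 are the protein-coding genes of the mitochondrial DNA, which carry the prefix mt-. The rule uses names and no measured value, but it was set with earlier results of these data known.

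In oxidative phosphorylation, complexes I and II pass electrons from NADH and succinate to coenzyme Q, complex III passes them on to cytochrome c, and complex IV passes them to oxygen. The proton gradient built by complexes I, III and IV drives ATP synthesis by complex V. Complexes I, III, IV and V are built from subunits of both genomes, while complex II is entirely nuclear. The mitochondrial DNA is transcribed as long precursors from both strands that are cut into separate RNAs, whereas each nuclear subunit has its own promoter.

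The cells were live CD45+ EPCAM- Ter119- CD31- cells, that is leukocytes without epithelial, erythroid and endothelial cells, sorted from the lamina propria of the small intestine. Both groups were female littermates aged 10 to 12 weeks that carried floxed Aster-A alleles (Aster-A F/F), fasted for 16 h and then given olive oil by gavage for 2 h. Aster-A is an endoplasmic reticulum protein that moves cholesterol and is encoded by Gramd1a. The F/F group carried no Cre, and the CD4-Cre group (CD4-Cre; Aster-A F/F) carried a Cre driven by Cd4 regulatory sequence, which is active in developing αβ T cells and so deletes in CD4 and CD8 T cells. In each group 100000 cells from each of 3 mice were pooled and loaded together, which gave 1 library per genotype. Genotype, pool and library therefore cannot be told apart, there is no replicate check, and no test was made. The intervals given below are 95% intervals of counting error only.

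The libraries held 222838658 (F/F) and 200580083 (CD4-Cre) UMIs, the molecule tags that are counted once per captured RNA. After filtering, 12594 F/F and 12526 CD4-Cre cells remained, with a median of 15319.5 and 14031.0 UMIs per cell, and 47 cell barcodes occurred in both libraries. The cells fell into 19 clusters, formed without the member genes. The comparisons use the 11 cell groups that had at least 100 cells in both libraries and were not a mixture of cell types. These are plasma-like cells (7618 F/F and 6490 CD4-Cre cells), cycling plasma-like cells (1224 and 882), cDC1-like (342 and 485), CD4 T-like (494 and 705), CD8 T-like (141 and 365) and macrophage-like cells (673 and 455), together with 5 clusters left unnamed. The unnamed clusters were led by Klra7 and Ncr1 (cluster 0), Gzma and Trdc (cluster 8), Foxp3 (cluster 13), Cd163l1 (cluster 14) and Zbtb16 (cluster 15). Gramd1a itself had 59.8 CPM (UMIs scaled to the total UMIs of the cell group) in CD4 T-like cells of F/F and 56.6 CPM in those of CD4-Cre. No source used here names the deleted exons, so these 3′ counts do not check the deletion. The libraries also differed in RNA of pancreatic acinar genes: 9 such genes summed to 485 to 1380 CPM in the 11 groups of the F/F library and to 0 to 22.7 CPM in CD4-Cre. The part of this difference in the results below was not tested.

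Nuclear subunit mRNA was most abundant in cycling plasma-like cells and least abundant, per UMI, in plasma-like and macrophage-like cells. The 94 nuclear members summed to 22400 CPM in cycling plasma-like cells of F/F and to 20000 CPM in those of CD4-Cre. CD4 T-like cells held 20400 and 18000 CPM, CD8 T-like cells 19300 and 17100 CPM, and cDC1-like cells 18200 and 16700 CPM. Macrophage-like cells held 12200 and 11900 CPM and plasma-like cells 11200 and 9770 CPM. The unnamed clusters lay between 13500 and 18700 CPM. In all 11 groups the F/F library had the higher sum.

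The low level in plasma-like cells depended on the scale. Immunoglobulin mRNA made up 52.7% of UMIs in F/F plasma-like cells and 54.5% in CD4-Cre, against 4.1% and 4.37% in CD4 T-like cells. When CPM was taken over all other genes, plasma-like cells held 23700 and 21500 CPM of nuclear members and CD4 T-like cells 21200 and 18800 CPM. On that scale macrophage-like cells were lowest, at 14700 and 14200 CPM, and cycling plasma-like cells stayed highest, at 30200 and 27600 CPM. Per gene, the median log2 ratio of plasma-like over CD4 T-like cells in F/F was -0.91 over 86 nuclear members, 73 of which were lower and 1 higher by a rule used throughout: at least 200 UMIs over both sums, and a CPM at least 25% above the other (higher) or at least 20% below it (lower). Among all genes measured, 77% were lower and 14.5% higher by that rule, with a median of -1.34. Without immunoglobulin the median of the members turned to 0.11, with 30 higher and 16 lower, where 30.5% of all genes were higher and 50% lower. CD4-Cre gave -0.94 and 0.13.

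Transcripts of the mitochondrial DNA had another order of cell groups. They took the largest share of UMIs in cluster 0, with 3.75% in F/F and 4.11% in CD4-Cre. CD8 T-like cells had 3.73% and 3.92%, CD4 T-like cells 3.47% and 3.68%, and cDC1-like cells 2.67% and 2.87%. Cycling plasma-like cells had 2.19% and 2.35%, macrophage-like cells 2.21% and 2.43%, and plasma-like cells the lowest share at 1.73% and 1.83%. In plasma-like cells this share became 3.66% and 4.02% without immunoglobulin UMIs, close to 3.62% and 3.85% in CD4 T-like cells. Cycling plasma-like cells, which ranked first for the nuclear genes, then had 2.94% and 3.25%. Their mt- UMIs per nuclear member UMI numbered 0.975 in F/F and 1.18 in CD4-Cre, the lowest of the 11 groups, while cluster 0 had 2.31 and 2.81.

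**Figure D1:**
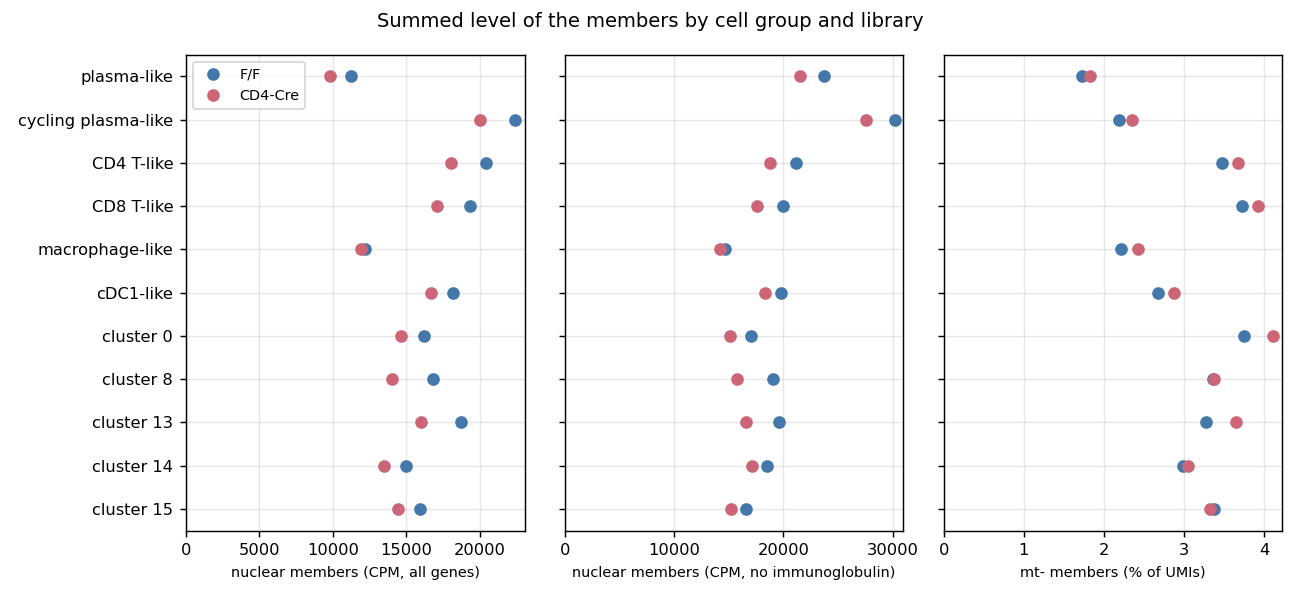
Summed UMIs of the 94 nuclear members in CPM of all genes (left), in CPM without immunoglobulin genes (middle) and of the 13 mt- members in percent of UMIs (right), for the 11 cell groups; 1 point per library, blue F/F and red CD4-Cre. The nuclear sum is lower in CD4-Cre in every group, with the closest pair in macrophage-like cells (12200 and 11900 CPM), and the plasma-like pair moves from the lowest to the second highest place when immunoglobulin is left out.

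Against the other plasma-like cells, the cycling cluster had more of most nuclear members, by a count that depended on the scale. Of 86 measured in F/F, 84 were higher by the same rule, with a median log2 ratio of 1.11, where 69.8% of all genes were higher with a median of 0.64. In CD4-Cre 84 of 86 were higher with a median of 1.13, against 72.4% of all genes. Without immunoglobulin 52 of the 86 were higher and 3 lower in F/F, with a median of 0.46, where 30.4% of all genes were higher and 30.7% lower, with a median of -0.01. The complex I assembly factor Ndufaf6 had 1.63 CPM in plasma-like and 6.84 CPM in cycling plasma-like cells of F/F, a ratio of 4.2 (3.48 to 5.08). Uqcr10, a small subunit of complex III, had 62.3 and 215 CPM, a ratio of 3.45 (3.34 to 3.56). Atp5b, the catalytic β subunit of complex V, had 208 and 582 CPM, a ratio of 2.8 (2.75 to 2.85), and 203 and 569 CPM in CD4-Cre. These genes were picked from the ends of the list after their values were seen. At the other end stood Ndufa1, a small membrane subunit of complex I encoded on the X chromosome, with 314 and 283 CPM in F/F (0.9, 0.881 to 0.921). This gene also had more UMIs per total in plasma-like than in CD4 T-like cells (314 against 176 CPM), the reverse of 73 other members. The mt- members differed less between these clusters, with a median of 0.33 and 7 of 13 higher, and had a median of -0.33 without immunoglobulin.

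The 12 nuclear members with the widest range across groups followed several patterns. In F/F, 7 of them were lowest in plasma-like cells. Cox7a2l, a factor that joins complexes III and IV into supercomplexes, had 117 CPM in plasma-like, 146 in cycling plasma-like, 300 in macrophage-like, 366 in CD4 T-like, 490 in cDC1-like and 525 in CD8 T-like cells of F/F. In CD4-Cre the same groups had 116, 161, 350, 423, 541 and 568 CPM, in the same order. Without immunoglobulin its highest and lowest groups in F/F, now CD8 T-like and cycling plasma-like cells, still differed 2.76-fold. Atp5g1, which encodes the ring subunit of complex V that carries the protons, had 697 CPM in cycling plasma-like cells, 276 to 291 CPM in plasma-like, CD4 T-like and cDC1-like cells and 179 CPM in cluster 15, with 605, 249, 231, 285 and 141 CPM for these groups in CD4-Cre. Ndufs8, an iron-sulfur core subunit of complex I, ranged from 44.6 CPM in cluster 15 to 192 CPM in cycling plasma-like cells in F/F and from 57.2 to 196 CPM in CD4-Cre. Uqcrh of complex III and Atp5h of complex V were highest in CD8 T-like cells, at 855 and 727 CPM in F/F and 706 and 691 CPM in CD4-Cre. Cox8a of complex IV was highest in CD4 T-like cells (797 and 686 CPM), and Atp5l of complex V in cDC1-like cells (526 and 468 CPM). Uqcr11, Ndufb6, Ndufa12 and Atp5b were highest in cycling plasma-like cells in both libraries, and Uqcr10 in CD4 T-like cells of F/F but in cluster 13 of CD4-Cre (256 and 177 CPM). Over the 68 nuclear members with enough UMIs for a rank, cycling plasma-like cells were highest for 41 in F/F and 43 in CD4-Cre by CPM over all genes. Without immunoglobulin the counts were 53 and 54. The share of all genes that were highest in these cells was not counted, so these counts do not show a trait of the members.

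**Figure D2:**
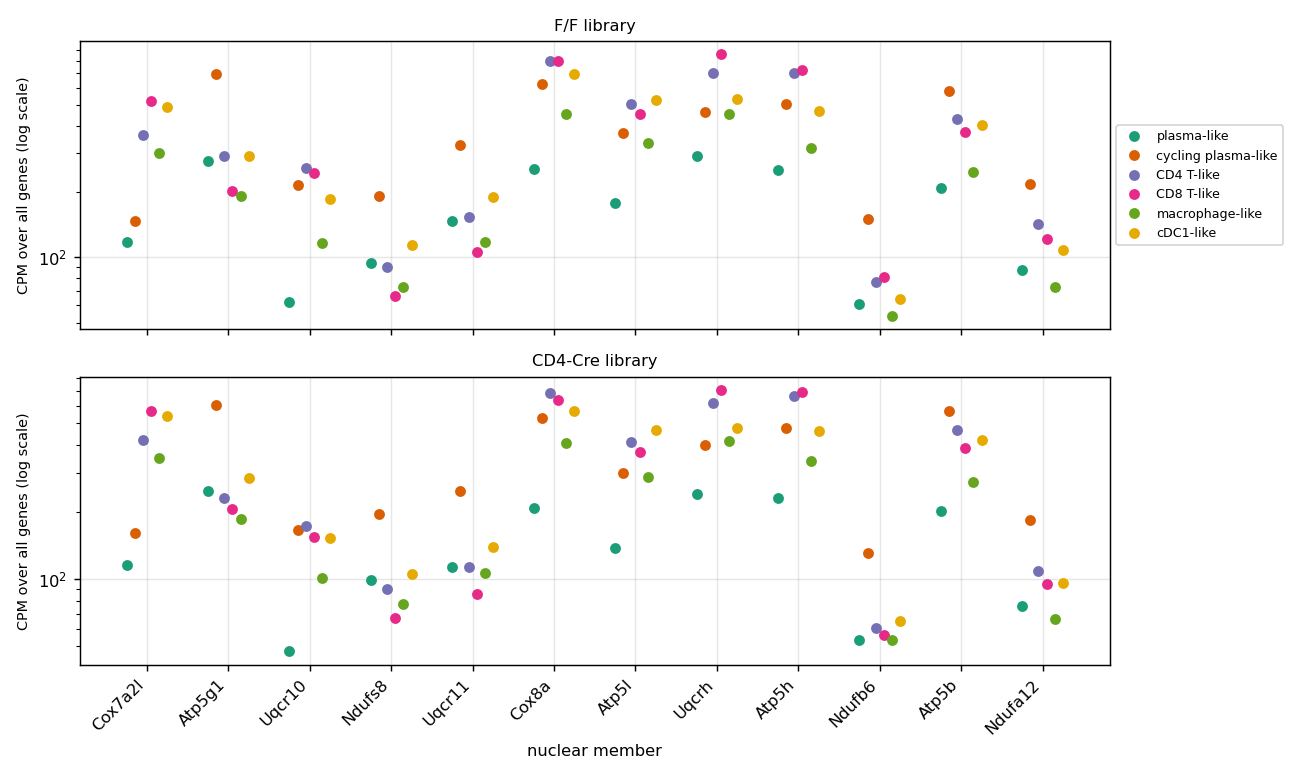
CPM over all genes (log scale) of the 12 nuclear members with the widest range across groups, in the 6 named cell classes, F/F library above and CD4-Cre library below; 1 point per class. Cycling plasma-like cells lead for Atp5g1, Ndufs8, Uqcr11, Ndufb6, Atp5b and Ndufa12, while Cox7a2l is lowest in plasma-like and cycling plasma-like cells (117 and 146 CPM in F/F).

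Macrophage-like cells had less nuclear subunit mRNA than CD4 T-like cells on both scales. In F/F, 73 of 78 members were lower, with a median log2 ratio of -0.72, where 46% of all genes were lower with a median of -0.23. Without immunoglobulin 58 were lower, with a median of -0.52, where 37.3% of all genes were lower. The median was -0.60 in CD4-Cre. Plasma cell markers summed to 19700 CPM in F/F macrophage-like cells and 18500 CPM in CD4-Cre, while CD4 T-like cells had 4440 and 4650 CPM, and their part in this result was not tested. The mt- genes were also lower in macrophage-like cells, with a median of -0.63 in F/F and -0.50 in CD4-Cre. In cDC1-like cells of F/F the nuclear median was -0.21 relative to CD4 T-like cells and the mt- median was -0.52. CD8 T-like cells had medians of -0.13 and 0.09.

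Between the genotypes, the summed CPM of the nuclear members was lower in CD4-Cre in each of the 11 groups compared. That of the mt- members was not lower in each group. The groups were T cells and other cells, and the part of the Cre was not tested. Among classes under the cell limit the direction was mixed: B-like cells (90 and 178 cells) had 17300 CPM in F/F against 21400 CPM in CD4-Cre and ILC2-like cells 10600 against 20700 CPM, while cDC2-like cells had 16900 against 15800 CPM and neutrophil-like cells 13200 against 11700 CPM. The ratio of the summed nuclear members, CD4-Cre over F/F, was 0.882 (0.871 to 0.893) in CD4 T-like, 0.886 (0.867 to 0.905) in CD8 T-like, 0.872 (0.869 to 0.874) in plasma-like, 0.891 (0.888 to 0.895) in cycling plasma-like and 0.915 (0.908 to 0.923) in cDC1-like cells. It was nearest to 1 in macrophage-like cells, at 0.971 (0.959 to 0.984), and furthest in cluster 8, at 0.834 (0.819 to 0.85). The ratio of the summed mt- members was 1.1 (1.09 to 1.11) in macrophage-like cells, 1.06 (1.05 to 1.07) in CD4 T-like cells, 1.11 (1.1 to 1.13) in cluster 13 and 0.986 (0.975 to 0.997) in cluster 15. Taken as mt- UMIs per nuclear member UMI, which does not depend on what else is counted, the value was 1.7 in F/F and 2.05 in CD4-Cre CD4 T-like cells, 1.54 and 1.87 in plasma-like cells and 1.8 and 2.04 in macrophage-like cells. The ratio of these values was 1.08 to 1.3 over the 11 groups. Stress genes of CD4 T-like cells summed to 550 CPM in F/F against 471 CPM in CD4-Cre, and those of plasma-like cells to 306 against 260 CPM, and their part in this difference was not tested.

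Gene by gene, the same rule was applied between the libraries. In CD4 T-like cells 25 of 79 nuclear members were lower and 0 higher, with a median log2 ratio of -0.21. Among all genes there, 6.02% were lower and 8.92% higher, with a median of 0.06. In plasma-like cells 26 of 88 were lower and 0 higher (median -0.18), where 8.85% of all genes were lower, 2.23% were higher and the median was -0.03. With immunoglobulin left out the plasma-like counts were 8 lower and 0 higher (median -0.13), where 6.19% of all genes were lower and 3.44% higher, with a median of 0.03. In CD8 T-like cells 17 of 62 were lower (8.75% of all genes) and 0 higher (20.8%). Cycling plasma-like cells had 17 of 86 lower (7.25%) and 1 higher (3.84%), the assembly factor Ndufaf5 with 3.25 and 4.32 CPM (1.33, 1.01 to 1.75). In cDC1-like cells 11 of 83 were lower (5.93%) and 0 higher (4.57%). Macrophage-like cells had 3 of 78 lower (9.11% of all genes) and 3 higher (7.5%), so their lower count lay below the share of all genes, and in cells thinned to 1500 UMIs their mean was 17.4 nuclear member UMIs per cell in F/F and 17.6 in CD4-Cre. Among the unnamed clusters, 18 of 74 were lower in cluster 0 (5.06% of all genes), 33 of 72 in cluster 8 (7.75%), 26 of 75 in cluster 13 (5.91%), 11 of 40 in cluster 14 (13.6%) and 15 of 74 in cluster 15 (6.3%). Higher members numbered 1 (10.8% of all genes), 2 (17.4%), 0 (13%), 1 (5.9%) and 2 (6.66%) in these clusters. They were Sdhb, then Sdha and Ndufs3, then Cox7a2l, and in cluster 15 Ndufa9 (46 and 68.1 CPM) and Ndufs8 (44.6 and 57.2 CPM). The ratio of Ndufs8 there was 1.28, with an interval of 0.949 to 1.75 that includes 1.

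**Figure D3:**
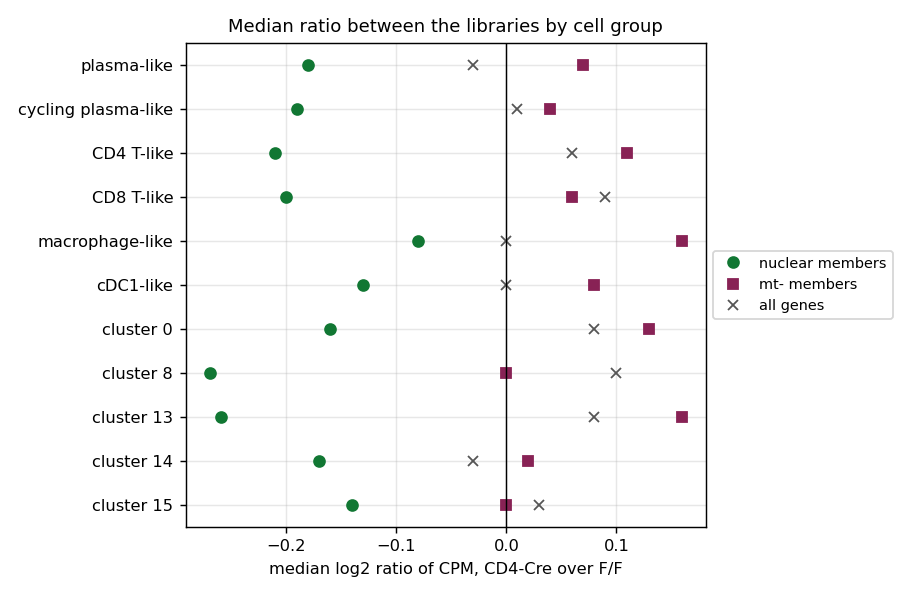
Median log2 ratio of CPM, CD4-Cre over F/F, in the 11 cell groups for nuclear members (circles), mt- members (squares) and all genes with at least 200 UMIs (crosses). The nuclear medians run from -0.27 to -0.08 and lie below the median of all genes in each group, while the mt- medians run from -0.00 to 0.16.

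The lower members were spread over complexes I, III, IV and V. In plasma-like cells, where 8.85% of all genes were lower, 12 of 37 complex I subunits, 3 of 8 complex III, 5 of 14 complex IV and 5 of 17 complex V genes were lower, and 0 of 4 complex II genes. In CD4 T-like cells, where 6.02% of all genes were lower, the counts were 11 of 36, 3 of 8, 7 of 12, 4 of 17 and 0 of 4. At these shares a count of 0 among 4 genes says nothing of complex II. The summed ratio in plasma-like cells was 0.82 (0.814 to 0.827) for complex III, 0.848 (0.843 to 0.852) for complex IV, 0.875 (0.871 to 0.879) for complex I, 0.901 (0.897 to 0.905) for complex V and 1.01 (0.992 to 1.04) for complex II. CD4 T-like cells gave 0.829, 0.865, 0.874, 0.913 and 1.04 (0.945 to 1.16), the same order. Over the 11 groups the median log2 ratio ran from -0.27 to -0.10 for complex I, from -0.34 to -0.10 for complex III, from -0.36 to -0.19 for complex IV and from -0.19 to 0.02 for complex V.

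In complex I, the accessory subunit Ndufa1 had 176 CPM in CD4 T-like cells of F/F against 121 CPM in CD4-Cre (0.685, 0.592 to 0.792), and 314 and 233 CPM in plasma-like cells, a ratio of 0.744 (0.733 to 0.756). Ndufs6, an accessory subunit needed late in assembly, was lower in all 10 groups that measured it, with log2 ratios of -0.53 to -0.34. It had 154 and 122 CPM in CD4 T-like cells and 133 and 99.3 CPM in cDC1-like cells. Ndufa13 had 294 and 227 CPM in plasma-like cells, a ratio of 0.771 (0.759 to 0.784), and Ndufc2 in cluster 8 had 89.4 and 44.9 CPM, a ratio of 0.502 (0.371 to 0.675). Ndufv1, the core subunit that takes electrons from NADH, was nearer to equal, with 38.2 and 35.8 CPM in plasma-like cells (0.937, 0.899 to 0.977) and 54.9 and 53.9 CPM in CD4 T-like cells (0.982). Higher in macrophage-like cells were the complex I subunits Ndufa8 (63 and 82.4 CPM, 1.31, 1.11 to 1.54) and Ndufa9 (31 and 41.4 CPM, 1.33, 1.05 to 1.69). Ndufa5 (55.4 and 39 CPM, 0.704) and Ndufs6 (103 and 80.9 CPM, 0.784) were lower there, and so was the assembly factor Ndufaf8 (35.9 and 28.7 CPM), whose interval of 0.617 to 1.03 includes 1.

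Complex II, the succinate dehydrogenase that also belongs to the citrate cycle, had no member lower by the rule in any group that measured it. In CD4 T-like cells the flavoprotein Sdha had 85.9 and 101 CPM (1.18, 0.982 to 1.42) and the iron-sulfur subunit Sdhb had 114 CPM in both libraries (0.997, 0.845 to 1.18). The membrane anchors Sdhc (43 and 42.1 CPM) and Sdhd (54.5 and 53.6 CPM) were also close. In plasma-like cells Sdha had 30.3 and 31.5 CPM, Sdhb 63.5 and 65.2, Sdhc 23.9 and 23.5 and Sdhd 19.6 and 19 CPM. The 4 ratios lay between 0.97 and 1.04. Macrophage-like cells had 63.2 and 60.7 CPM of Sdha, 71.4 and 82.7 of Sdhb, 38.7 and 39.9 of Sdhc and 38.9 and 38.3 of Sdhd. In cDC1-like cells Sdhb had 64.7 and 75.7 CPM (1.17, 1.03 to 1.33) and Sdhc 33.1 and 28.6 CPM (0.864, 0.71 to 1.05). Higher calls were limited to Sdhb in cluster 0 (53.5 and 88.4 CPM, 1.65, 1.29 to 2.13) and Sdha in cluster 8 (68.2 and 94.2 CPM, 1.38, 1.06 to 1.8).

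In complex III, Uqcr10 had 256 CPM in F/F and 173 in CD4-Cre CD4 T-like cells, a ratio of 0.677 (0.6 to 0.764), 243 and 154 CPM in CD8 T-like cells and 62.3 and 47.4 CPM in plasma-like cells. It was lower in 7 of the 10 groups that measured it. Uqcr11 had 327 and 249 CPM in cycling plasma-like cells (0.762, 0.738 to 0.786) and 190 and 140 CPM in cDC1-like cells (0.734, 0.675 to 0.799), and was also lower in 7 of 10 groups. Uqcrb, which lies near a coenzyme Q site, had 178 and 111 CPM in CD8 T-like cells (0.623, 0.488 to 0.797). The large core subunits were nearer to equal: Uqcrc2 had 48.7 and 48.5 CPM in plasma-like and 105 and 101 CPM in CD4 T-like cells, and Uqcrc1 had 50.2 and 42.3 CPM in plasma-like cells (0.843, 0.812 to 0.875).

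In complex IV, whose catalytic centre is mitochondrially encoded, several small nuclear subunits were lower. Cox6b1 had 416 and 306 CPM (0.735, 0.67 to 0.807), Cox6c 534 and 398 CPM (0.745, 0.686 to 0.808) and Cox7a2 356 and 266 CPM (0.747, 0.677 to 0.826) in CD4 T-like cells. Cox6c had 213 and 161 CPM in plasma-like cells. Cox5b, a zinc-binding subunit, was lower in 9 of 11 groups, with log2 ratios of -0.67 to -0.23 and 378 and 237 CPM in CD8 T-like cells. Cox7c had 627 and 499 CPM in cDC1-like cells (0.796, 0.76 to 0.833). Cox8a and Cox6a1, which are also small, did not pass the rule, with 797 and 686 CPM (0.861) and 214 and 181 CPM (0.847) in CD4 T-like cells. Cox4i1, the largest nuclear-encoded subunit of this complex, was lower in 0 of 11 groups, with log2 ratios of -0.11 to 0.12 and 894 and 935 CPM in CD4 T-like cells. Cox7a2l had 366 and 423 CPM in CD4 T-like cells (1.16, 1.06 to 1.26) and was higher by the rule in cluster 14 (234 and 298 CPM, 1.27, 1.02 to 1.58).

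In complex V, Atp5e, the small ε subunit of the central stalk, was lower in 10 of 11 groups. It had 369 and 277 CPM in plasma-like cells (0.752, 0.742 to 0.763), 626 and 487 CPM in CD4 T-like cells, 640 and 448 CPM in cluster 13 and 505 and 330 CPM in cluster 14. Atp5j2, a subunit of the membrane part, had 401 and 300 CPM in CD4 T-like cells (0.748, 0.681 to 0.821) and 378 and 268 CPM in cluster 13. Atp5mpl, a small proteolipid of the membrane part, had 90.2 and 68.5 CPM in plasma-like cells (0.759, 0.738 to 0.781). The catalytic head differed from these: Atp5a1 had log2 ratios of 0.03 to 0.26 over the 11 groups, with 156 and 160 CPM in plasma-like cells, and Atp5b had -0.08 to 0.14, with 208 and 203 CPM.

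Among the 13 mt- genes, mt-Nd3 and mt-Atp8 were below the F/F level in every group that measured them. mt-Nd3 encodes a short membrane subunit of complex I and had 248 CPM in CD4 T-like cells of F/F against 169 CPM in CD4-Cre (0.681, 0.602 to 0.769). It had 103 and 75 CPM in plasma-like (0.726, 0.707 to 0.746), 168 and 136 CPM in macrophage-like (0.811, 0.722 to 0.91) and 171 and 129 CPM in cDC1-like cells (0.753, 0.69 to 0.823). Its log2 ratio was below 0 in all 11 groups, from -0.57 to -0.30, and it was lower by the rule in 9. The complex V subunit mt-Atp8 had 37.2 and 30.9 CPM in plasma-like cells (0.829, 0.793 to 0.866) and 80.2 and 68.9 CPM in CD4 T-like cells (0.859, 0.699 to 1.05), and was below 0 in the 9 groups that measured it. The complex I subunit mt-Nd4l, which is also short (294 nt), had 135 and 137 CPM in CD4 T-like and 87.2 and 81.3 CPM in plasma-like cells. Its log2 ratio ran from -0.30 to 0.28 and was below 0 in 6 of the 10 groups that measured it. It was lower by the rule in 0 groups.

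The coding sequences of mt-Atp8 and mt-Atp6 overlap, as do those of mt-Nd4l and mt-Nd4, so reads in the shared stretches could be split between them, and several nuclear members have near-identical pseudogene copies. How such reads were counted is not stated in the labels.

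In plasma-like and CD4 T-like cells the longer mt- genes were level or higher in CD4-Cre. Over the groups compared, some also fell below 0. The lowest log2 ratio was -0.17 for mt-Nd6, -0.16 for mt-Co2 and mt-Nd5, -0.12 for mt-Nd1 and -0.11 for mt-Co3. For mt-Nd6 it was below 0 in 2 of the 5 groups that measured it. None of the longer genes was lower by the rule in any group. mt-Nd5 was higher by the rule in 3 of 11 groups and mt-Nd6 in 1 of 5. In plasma-like cells the complex III subunit mt-Cytb had 2040 and 2270 CPM (1.11), and in CD4 T-like cells 3330 and 3720 CPM (1.12, 1.09 to 1.15). The complex IV subunits had 2940 and 3100 CPM (mt-Co1), 2450 and 2560 CPM (mt-Co2) and 3460 and 3650 CPM (mt-Co3) in plasma-like cells. In CD4 T-like cells they had 5700 and 6130, 5180 and 5230, and 6920 and 7280 CPM. The complex V subunit mt-Atp6 had 3320 and 3510 CPM in plasma-like and 7580 and 7950 CPM in CD4 T-like cells. Of the complex I subunits, mt-Nd1 had 1050 and 1140, mt-Nd2 794 and 834, mt-Nd4 822 and 848 and mt-Nd5 186 and 192 CPM in plasma-like cells. In CD4 T-like cells they had 2010 and 2230, 1670 and 1820, 1470 and 1660, and 335 and 373 CPM. The only gene read from the other strand, mt-Nd6, had 18.5 and 19.5 CPM in plasma-like and 36.8 and 40 CPM in CD4 T-like cells.

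**Figure D4:**
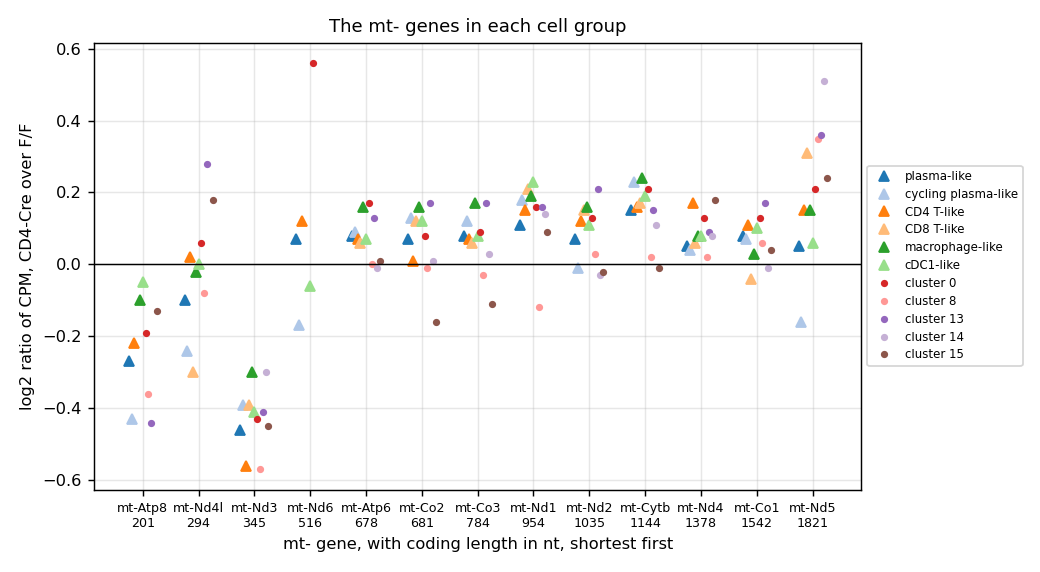
Log2 ratio of CPM, CD4-Cre over F/F, of each mt- gene, ordered by coding length (printed under its name in nt); triangles are named classes and circles unnamed clusters, drawn where the gene had at least 200 UMIs over both libraries. mt-Nd3 lies between -0.57 and -0.30 in all 11 groups and mt-Atp8 below 0 in 9, while mt-Nd4 (0.02 to 0.18) is above 0 throughout.

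The nuclear members that were lower in the most groups mostly had short coding sequences, but not all short members were lower. Atp5md (174 nt) and Uqcrh (267 nt) were lower by the rule in 0 of 11 groups and Cox8a (207 nt) in 2. Their ratios were below 1 in 9, 11 and 11 groups. Coding length was counted without the stop codon, from the principal transcript of the annotation. The 13 nuclear members that were lower in 6 or more groups had a median of 238 nt, without Ndufb1-ps, which has no annotated coding length. The 30 measured in 6 or more groups and lower in 0 had a median of 638 nt. In all, 75 nuclear members were measured in 6 or more groups. The share of all genes, or of other short genes, at these cuts was not counted. The 2 counts therefore do not show a trait of the members. The coding sequences of 3 short nuclear members that were lower and of mt-Atp8 are printed as examples, picked after the ratios were seen. They are on GRCm38 from GENCODE M21, 5′ to 3′ with the first and the stop codon in capitals. The spans of the nuclear genes include introns. Atp5e lies at chr2:174461072-174464105 (minus strand, 156 nt coding), Uqcr11 at chr10:80402997-80406830 (minus strand, 168 nt), Uqcr10 at chr11:4701973-4704342 (minus strand, 192 nt), mt-Atp8 at chrM:7766-7969 (plus strand, 201 nt) and mt-Nd3 at chrM:9459-9806 (plus strand, 345 nt).
Atp5e: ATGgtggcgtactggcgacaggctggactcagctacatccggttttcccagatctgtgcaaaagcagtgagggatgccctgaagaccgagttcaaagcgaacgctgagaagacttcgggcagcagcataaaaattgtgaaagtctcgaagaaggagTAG
Uqcr11: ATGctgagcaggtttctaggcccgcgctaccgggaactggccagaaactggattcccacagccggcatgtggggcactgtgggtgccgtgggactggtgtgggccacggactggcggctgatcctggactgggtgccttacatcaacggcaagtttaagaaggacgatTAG
Uqcr10: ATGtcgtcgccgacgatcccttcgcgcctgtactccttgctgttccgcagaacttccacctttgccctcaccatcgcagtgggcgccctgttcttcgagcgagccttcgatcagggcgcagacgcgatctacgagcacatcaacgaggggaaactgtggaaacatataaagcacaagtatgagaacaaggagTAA
mt-Atp8: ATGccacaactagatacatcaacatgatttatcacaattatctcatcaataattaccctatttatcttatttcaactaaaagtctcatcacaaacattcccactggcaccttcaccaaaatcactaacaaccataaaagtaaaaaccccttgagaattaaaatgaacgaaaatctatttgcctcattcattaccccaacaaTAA

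Grouped by coding length, nuclear members under 300 nt had a median log2 ratio of -0.36 in CD4 T-like cells, with 14 of 21 (66.7%) lower. Those of 300 to under 600 nt had -0.19 (10 of 38, 26.3%), those of 600 to under 1200 nt had -0.00 (0 of 11) and those of 1200 nt or more had -0.01 (0 of 8). In plasma-like cells the medians were -0.35 (15 of 23 lower), -0.16 (9 of 40), 0.05 (0 of 14) and -0.02 (1 of 10). The exception in the last group was Ndufv3, an accessory subunit of complex I annotated at 1404 nt, with 98.9 and 78.1 CPM (0.789, 0.768 to 0.811) in plasma-like cells. Macrophage-like cells, whose summed ratio was nearest to 1, had medians of -0.19, -0.07, 0.16 and 0.11.

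Across genes, Spearman's rho between the log2 ratio and coding length was 0.75 (Pearson's r 0.69, 78 genes) in CD4 T-like cells, 0.72 (0.65, 87 genes) in plasma-like cells and 0.64 (0.57, 77 genes) in macrophage-like cells. These are descriptions over genes that share the same 2 libraries and are not independent. For the mt- genes rho was 0.79 (0.68) in CD4 T-like and 0.40 (0.71) in plasma-like cells, over 13 genes each. For genes that are no members rho was 0.27 in CD4 T-like, 0.12 in plasma-like and -0.27 in macrophage-like cells. It was 0.44 in CD8 T-like cells and cluster 8 and 0.35 in cluster 13, where the nuclear members had 0.65, 0.62 and 0.63. Among those other genes under 300 nt, 24.6% were lower in CD4 T-like and 27.6% in plasma-like cells. RNA outside cells was read from barcodes with few UMIs. In barcodes of 150 to 350 UMIs rho over 82 nuclear members was 0.68, with medians of -0.17 under 300 nt and 0.14 at 600 to under 1200 nt, while in barcodes of 10 to 100 UMIs it was 0.11 over 61 members. The nuclear members summed to 13400 and 12900 CPM in the first set and 12900 and 12800 CPM in the second. The part of coding length and of free RNA in the difference between the libraries was not tested.

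**Figure D5:**
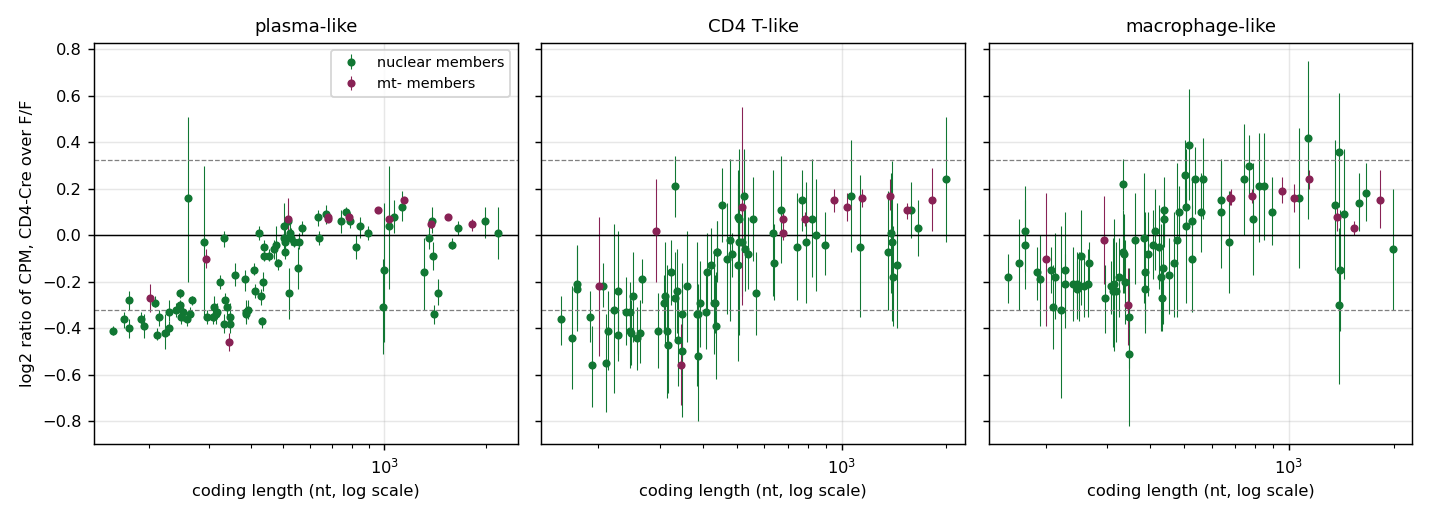
Log2 ratio of CPM, CD4-Cre over F/F, against coding length in nt (log scale) for nuclear (green) and mt- members (purple) with at least 200 UMIs, in plasma-like, CD4 T-like and macrophage-like cells; bars are 95% intervals of counting error and dashed lines mark 25% higher and 20% lower CPM. Members under 300 nt have medians of -0.35, -0.36 and -0.19 in the 3 classes, and members of 600 to under 1200 nt have medians of 0.05, -0.00 and 0.16.

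Genes that work beside the respiratory chain were compared from a list of 95: electron carriers and coenzyme Q synthesis, assembly factors, citrate cycle, carriers and channels, and biogenesis. In CD4 T-like cells 3 of the 37 with enough UMIs were lower and 0 higher, with a median log2 ratio of 0.01, beside 6.02% lower among all genes. They were the assembly factors Cox20 (84.6 and 58 CPM, 0.685, 0.554 to 0.847) and Uqcc2 (103 and 76.7 CPM, 0.746) and the small inner membrane protein Higd1a (102 and 80 CPM, 0.786). In plasma-like cells 5 of 94 were lower and 0 higher, with a median of -0.07, beside 8.85% lower among all genes. Over the whole list, these counts lie near or below the share of all genes in these classes. Cox17, the copper chaperone of complex IV, had 127 and 97.2 CPM (0.766, 0.748 to 0.785). The remaining ones were Cox20, Coa7, Slirp and Mterf1a. The 13 citrate cycle genes had a median of -0.00 in plasma-like cells with 0 lower, and 8 measured in CD4 T-like cells had 0.05 with 0 lower. The 3 lower genes of CD4 T-like cells were all among the 13 assembly factors measured there. Assembly factors were lower for 3 of 10 in cluster 13 (5.91% of all genes) and 3 of 10 in cluster 15 (6.3%). They were lower for 3 of 38 in the plasma-like class (8.85%) and 4 of 36 in its cycling counterpart (7.25%). The counts were 1 of 9 in cluster 0 (5.06%), 1 of 8 in cluster 8 (7.75%) and 0 of 6 in the CD8 T-like class (8.75%). Assembly factors were lower for 0 of 20 in cDC1-like (5.93%) and 0 of 11 in macrophage-like cells (9.11%). A share above that of all genes was thus not found in every group. In cycling plasma-like cells, cDC1-like cells, cluster 8 and cluster 13, 1 assembly factor each was higher. Over the whole list, cluster 15 had 5 of 27 lower and 1 higher.

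Tissue-specific versions and other paralogues of the subunits had few UMIs. Over all kept cells the general form Cox4i1 had 118981 UMIs in F/F and 105207 in CD4-Cre, while Cox4i2, known from lung and smooth muscle, had 39 and 29. The muscle form Cox6a2 had 208 and 184 UMIs beside 36941 and 26883 of Cox6a1. The muscle form Cox7a1 had 68 and 39 UMIs, the testis form Cox6b2 145 and 116, the paralogue Ndufa4l2 176 and 161, and Cox8b was at 0 in both. Plasma-like cells held 177 and 150 of the Cox6a2 UMIs and 137 and 132 of the Ndufa4l2 UMIs. These are 3′ molecule counts and are not scaled by length.

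Promoters of the nuclear members held the site of NRF1, a known activator of respiratory chain genes, more often than promoters at large. The exact palindrome GCGCATGCGC occurred within 250 bases upstream of the start, read on both strands, in 5 of 77 members with a RefSeq promoter (6.49%), against 0.877% of 27025 genes. The ETS letters CCGGAAG occurred in 18.2% against 7.83%, the SP1 letters GGGCGG in 40.3% against 35.4%, the E-box CACGTG in 7.79% against 6.86% and the YY1 letters AAGATGGC in 1.3% against 1.83%. The stretches with the NRF1 letters are printed because they are the members that share this site, on GRCm38.p6, 5′ to 3′ along the gene with the motif in capitals. Atp5g2 is at chr15:102671055-102671114 (minus strand), Atp5k at chr5:108434415-108434474 (minus), Cox6a1 at chr5:115349086-115349145 (minus), Ndufa11 at chr17:56717677-56717736 (plus) and Ndufaf4 at chr4:24897945-24898004 (plus).
Atp5g2: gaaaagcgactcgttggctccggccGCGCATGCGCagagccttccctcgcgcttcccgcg
Atp5k: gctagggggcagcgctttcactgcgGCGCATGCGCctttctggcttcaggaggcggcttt
Cox6a1: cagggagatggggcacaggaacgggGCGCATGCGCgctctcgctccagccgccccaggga
Ndufa11: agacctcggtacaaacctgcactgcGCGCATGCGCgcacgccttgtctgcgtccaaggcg
Ndufaf4: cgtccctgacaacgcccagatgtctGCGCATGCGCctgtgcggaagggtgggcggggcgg
None of the 12 matched members that were lower in 6 or more groups held the exact NRF1 letters, and neither did any of the 26 that were lower in 0. A match describes letters in this window and is not evidence of binding.

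Over the 22 points made by 11 groups in 2 libraries, the genes whose level was most like the summed mt- level were Esyt2, Smap1, Dnaja2, Fbxw2 and Ttc39b, each with Pearson's r of 0.97 among 3010 genes considered. The summed nuclear level had an r of 0.45 with it. The points share 2 libraries and differ in depth, so these values are descriptions.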

How the data were processed

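Expression was measured by 10x Genomics 3′ single-cell RNA-seq in 1 library per genotype, each a pool of 3 mice. The authors deposited unfiltered UMI counts per gene and barcode; Cell Ranger 7.2.0, Seurat 5.0.1 and the builds mm10 and GRCm38 are named in the submitters' processing notes, without their roles. Cells were barcodes that reached 1000 UMIs and 500 genes and did not exceed 10% mt- UMIs, and 845 F/F and 694 CD4-Cre barcodes were dropped by the last limit. Both libraries were clustered together with scanpy 1.11.5 (Leiden resolution 1 on 15 neighbours in 30 principal components of 2000 variable genes, seed 1), leaving out the members, immunoglobulin, T cell receptor and ribosomal genes, Jchain, Gramd1a and 171 genes whose free RNA differed more than 4-fold between the libraries. Clusters were named from marker lists, so the names are rebuilt here. Cluster 3, a mixture of T cell and plasma cell genes (406 and 534 cells), was left out. Scrublet called 0 doublets, which means that the caller did not work here, and doublets were not removed.

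UMIs were summed per cell group and library and scaled to CPM over all genes. Ratios have exact Clopper-Pearson 95% intervals from the split of UMIs, which cover counting error only. A gene was counted as higher or lower with at least 200 UMIs over both sums and a CPM at least 25% above or at least 20% below the other. Only the ratios and their intervals were tried on simulated data, drawn with counting error alone. The simulation held no differences between cells, mice or libraries and did not cover filtering, clustering or naming. The members and lists were chosen with earlier results of these data known, and coding length was looked at after the ratios were seen. The text names all mt- and complex II genes, up to 6 nuclear members per direction in CD4 T-like and plasma-like cells and up to 3 in other groups, ranked by the interval bound nearest to 1, and the 12 members with the widest range across groups. Other members named for contrast (such as Cox4i1, Atp5a1, Ndufv1, Uqcrc2) were chosen after their values were seen. The values of 1 named member are not reported here. Alternatives changed the filters, scaling, clustering, thinning and thresholds.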

Additional observations from a re-analysis of the deposited data

Results flagged for a closer look

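A difference against the general direction appeared in ILC2-like cells, which were outside the comparisons because they had 52 cells in F/F and 82 in CD4-Cre. Their summed nuclear members reached 20700 CPM in CD4-Cre against 10600 CPM in F/F, which is 1.97-fold (1.9 to 2.03, counting error only). When each cell was thinned to 1500 UMIs and cells were weighted equally, the mean was 21.2 nuclear member UMIs per cell in F/F and 18.5 in CD4-Cre, the reverse direction. B-like cells, with 90 and 178 cells, also had the higher sum in CD4-Cre, at 21400 against 17300 CPM, and at 24800 against 22300 CPM without immunoglobulin, and kept that direction when thinned (28.2 against 22.3 UMIs per cell). Neutrophil-like cells, with 18 and 40 cells, had a thinned mean of 19 in CD4-Cre against 16.4 in F/F. The causes were not tested.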

How the results depend on the processing

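No paired analysis was possible because there was 1 library per genotype, and for the same reason no library could be left out. Over 15 alternatives the median log2 ratio of CD4-Cre over F/F for the nuclear members stayed below 0 in CD4 T-like (-0.27 to -0.17), plasma-like and cDC1-like cells (-0.14 to -0.10). At Leiden resolution 0.5 no CD4 T-like class formed, which gave no value, and the macrophage-like median turned to 0.13. In plasma-like cells it was -0.26 with at most 5% mt- UMIs, with no such limit and at Leiden resolution 2, -0.25 with at most 20% mt- UMIs and with the free-RNA genes in clustering, -0.13 without immunoglobulin and -0.12 without immunoglobulin and mt- genes. The mt- median was 0.04 in CD4 T-like cells at 5%. In plasma-like cells it was 0.04 at 5%, at 20%, without a limit and at resolution 2, 0.13 without immunoglobulin, with or without mt- genes, 0.10 with median-of-ratios scaling, 0.02 in thinned cells, 0.05 with free-RNA genes and 0.06 without the highest Scrublet scores. The count of lower nuclear members in CD4 T-like cells was 16 without the 5 cells richest in each gene, and 0 at 1.5-fold, as in plasma-like cells. The plasma-like count was 8 without immunoglobulin, 6 without immunoglobulin and mt- genes and 14 with median of ratios. Higher counts in CD4 T-like cells were 1 with at least 2000 UMIs per cell and 2 at resolution 2. The plasma-like over CD4 T-like nuclear median in F/F turned to 0.11 without immunoglobulin, with or without mt- genes, and to 0.45 with median of ratios. It was -0.33 at 5%, -0.49 at 20%, -0.52 without a limit, -0.73 thinned, -0.34 at resolution 2, -0.55 with free-RNA genes and -0.70 without 5 cells per gene. Its mt- median turned to 0.03, 0.03 and 0.37 under the same scalings, and was -0.81 at 5%, -0.85 thinned, -0.91 at resolution 2, -0.94 with free-RNA genes and -0.88 without 5 cells. Macrophage-like over CD4 T-like cells had nuclear medians of -0.43 at 5%, -0.52, -0.53 and -0.48 under the scalings, -0.51 at resolution 2 and -0.49 with free-RNA genes, and mt- medians of -0.51 at 5%, -0.42, -0.43 and -0.38 under the scalings and -0.57 without the highest Scrublet scores. Under Leiden resolution 2 and the other mt- limits the cycling plasma cluster merged into plasma-like cells. Other causes were not tested. CD4 T-like cells have fewer UMIs per cell than plasma-like cells, so members with low counts have wide intervals there.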
